A study of Arabidopsis thaliana with 16 samples.

Results

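The comparison described here set shoots taken 4 h after a spray with gibberellin GA4 alone against shoots taken 2 h after it, in an Arabidopsis thaliana line that had received no dexamethasone (DEX). Its members are the 6 arrays, of 16 in the series, whose titles give this line, GA4 without DEX, and 2 h (3 arrays) or 4 h (3 arrays); no measured value chose them. The line, of ecotype Landsberg erecta, carries a DEX-inducible rga-delta17 transgene, a dominant form of a DELLA protein that gibberellin does not remove, and the transgene was not induced in these 6 samples. Seedlings grew for 8 days on MS agar with 2% sucrose under continuous light at 22 °C, were sprayed whole with 2 µM GA4, and 16 h later were sprayed again with 2 µM GA4. Shoots were cut off 2 h or 4 h after that second spray, and the submitters call the 3 samples of a group biological replicates. The sources used here do not give the number of plants in a sample or the promoter that drives the inducible system.

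The study was designed to find genes that respond early to a DELLA protein. Its other groups were 3 arrays each at 2 h and at 4 h from the same line sprayed with 2 µM GA4 plus 10 µM DEX, and 2 arrays each, at 4 h only, from a line carrying the vector without rga-delta17, with GA4 alone or GA4 plus DEX. The GA4-alone samples are the mock control of that design, so their change from 2 h to 4 h is the change with time in the control. Each time under GA4 alone is 1 group, so time since the spray, hour of collection and any handling particular to one harvest cannot be told apart. No array taken before the second spray was analysed here, so the values give a difference between the times and no starting level.

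Gibberellins are plant hormones that promote stem and leaf growth. In the cell, bioactive forms such as GA4 bind the GID1 receptors, the hormone-bound receptor joins a DELLA protein, and the F-box protein SLY1 then marks the DELLA for breakdown, which frees transcription factors that the DELLA held back. Growth genes downstream include those for expansins, which loosen cell walls, and for XTH enzymes, which cut and rejoin the xyloglucan that ties cellulose fibres together. Plants also have touch and rapid stress genes, many of them for calcium-binding or transcription factor proteins, whose transcripts often appear only briefly.

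Signals are MAS5 intensities on a linear scale. The 6 arrays had median signals of 177 to 190, and 8.22% to 10.8% of their values lay below the floor of 8 to which low values were raised before log2. Replicates of a time correlated at 0.958 to 0.964, and arrays of different times at 0.956 to 0.967, over 22746 probe sets, so the times did not separate by the overall correlation. The label of shoot tissue was checked with markers. RCA, which encodes Rubisco activase of leaf chloroplasts, ran from 16738 to 23392 over the 6 arrays, and 3 of 12 shoot markers had a probe set with 1 named gene. Of 12 root markers 3 were measured, none of them at the floor throughout: the beta-glucosidase gene PYK10 ran from 6003 to 7426, and the root-hair expansin genes EXPA7 and EXPA18 from 50.8 to 198. The summed signal of the root markers, most of it from PYK10, was 6697 to 7690 at 2 h and 6296 to 7170 at 4 h. None of the 6 markers passed the test between the times. As only 0.765% of all probe sets passed, the lack of a call among these 6 is no result about tissue content.

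Among the probe sets that passed the test, more were lower at 4 h than higher. Of 22746 probe sets, 174 were called (0.765%), that is, had a Benjamini-Hochberg adjusted p below 0.05 over all of them in a limma fit of all 16 arrays. At 4 h 47 of them were higher (0.207%) and 127 lower (0.558%). The 3 arrays of one time did not overlap the 3 of the other in any of the 174, a property that 6.52% of all probe sets had in the direction of higher at 4 h and 6.09% in the direction of lower. Most changes were modest: the median size was 0.67 (log2) for the rises and 0.68 for the falls, with 13 rises and 33 falls of at least 2-fold. Over all probe sets 11535 had a change above 0 and 10695 a change below 0. The median change was 0.004, with 4.77% higher and 4.92% lower at an unadjusted p below 0.05. The surplus of falls is therefore seen among the calls and not in these unadjusted shares.

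The count of calls depends on which arrays estimate the spread. With only the 6 arrays compared in the fit, 6 probe sets were called, all lower at 4 h and 4 of them among the 174, while 1921 had an unadjusted p below 0.05. Leaving out 1 of the 6 arrays gave 83, 93 and 115 calls without 2 h replicates 1, 2 and 3, and 75, 104 and 155 without 4 h replicates 1, 2 and 3.

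**Figure D1:**
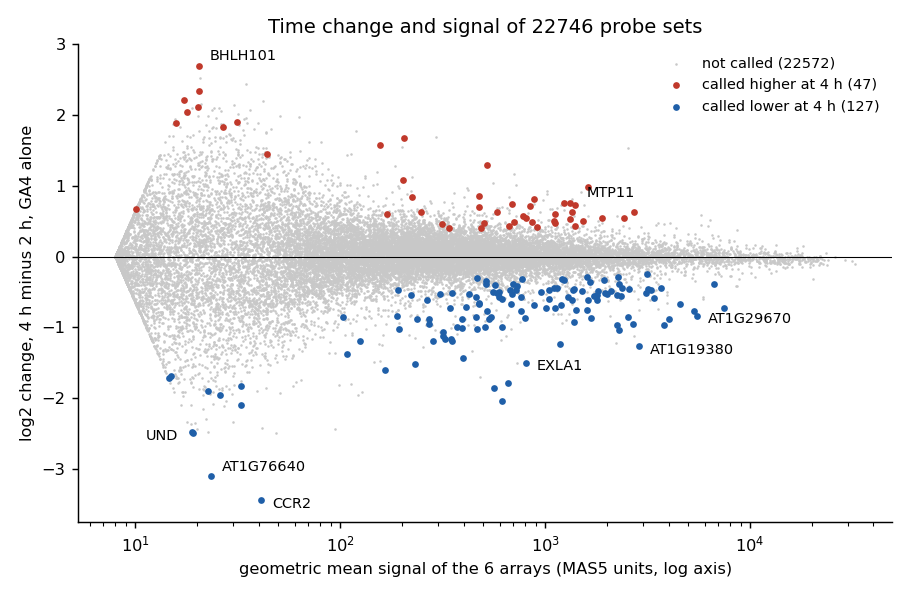
Change from 2 h to 4 h under GA4 alone (log2, y axis) against the geometric mean signal of the 6 arrays (x axis, log scale) for 22746 probe sets; grey points were not called, red points were called higher at 4 h (47) and blue points lower (127). The calls of largest size lie at low signals, the falls outnumber the rises among bright probe sets, and the spread of the grey points widens as the signal drops.

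The shares called differed with brightness. Among the brightest 25% of probe sets 1.81% were called, 24 up and 79 down; the calls had a median size of 0.56, and the median standard error there was 0.10. Among the dimmest 25% the share was 0.334%, 9 up and 10 down, the median size of the calls was 2.04 and the median standard error 0.59. The share did not rise steadily with brightness. It was lowest in the next dimmest 25%, at 0.123% (3 up, 4 down), and 0.791% in the 25% above that (11 up, 34 down).

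Among named genes the largest fall was that of CCR2, which encodes a cinnamoyl-CoA reductase, an enzyme of the path to lignin-type monomers that is also induced in defence. Its signal was 162.5, 88.2 and 175.5 on the 2 h arrays and 9.0, 8.2 and 26.1 on the 4 h arrays. All 2 h arrays lay above all 4 h arrays, and the 4 h values of replicates 1 and 2 sat just above the floor. The change was -3.45 ± 0.49 (log2 ± SE, limma adjusted p = 0.00902). In the vector line at 4 h under GA4 alone CCR2 read 123.9 and 84.7, near the lowest of the 2 h arrays of the other line and above all its 4 h arrays.

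AT1G76640, the calmodulin-like gene CML39, whose family of calcium-binding proteins includes touch-induced members, had signals of 56.9, 67.4 and 85.6 at 2 h. At 4 h it read 4.8, 2.2 and 3.8, below the floor on all 3 arrays. It was therefore at least 8.62-fold lower at 4 h (log2 change to the floor -3.11 ± 0.30, limma adjusted p = 0.00115). This call held in the 10 other settings that tested it, including the fit of only the 6 arrays, and whichever array was left out; the fits without dim probe sets did not include it. The vector line read 19.2 and 32.5 at 4 h, between the 2 sets of arrays. Its relatives CML37 and CML38 did not pass the test, with changes of 0.47 ± 0.79 and 0.23 ± 0.45 (adjusted p of 0.941 and 0.96 in the limma fit).

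EXLA1 encodes an expansin-like protein of the cell wall. It read 1660, 1341 and 1121 at 2 h and 383, 498 and 570 at 4 h. The lowest 2 h array was about as far above the highest 4 h array as the 2 h arrays were from each other. The fall was -1.51 ± 0.23 (limma adjusted p = 0.012), a 2.84-fold difference, and the vector line at 4 h read 454.5 and 418.6, among the 4 h arrays. The call was lost without 2 h replicate 1 or 4 h replicate 1, with a highest adjusted p of 0.0564 in those limma fits.

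UND, which encodes an aspartic protease known from the tapetum of anthers, read 50.9, 48.4 and 37.7 at 2 h and 7.0, 4.1 and 7.5 at 4 h, all 3 at or below the floor. It was at least 5.66-fold lower at 4 h (limma adjusted p = 0.0331). AGL92, a MADS-box transcription factor gene, read 76.2, 66.9 and 46.7 at 2 h and 13.3, 23.4 and 17.1 at 4 h, a fall of -1.83 ± 0.37 (limma adjusted p = 0.0461). Both genes are dim on these arrays. Leaving out any 1 of the 6 arrays removed both calls, with adjusted p up to 0.101 for UND and 0.173 for AGL92 in the limma fits. AGL92 also failed in 9 of 10 other settings and UND in 4 of 10.

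Genes known here only by their locus made up the rest of the 12 largest falls. AT1G19380 read 4376, 4252 and 4718 at 2 h and 1533, 2079 and 1957 at 4 h. The gap between the times was far wider than the range within either time. The change was -1.27 ± 0.12 (limma adjusted p = 0.00115), with 3405 ± 150 (SD, n = 2) in the vector line at 4 h. AT1G14780 fell from 523 ± 60.6 to 233 ± 17 (SD, n = 3 each) and AT1G69840 from 3311 ± 584 to 1589 ± 104, with limma adjusted p of 0.00185 and 0.00423. These 3 calls were kept whichever array was left out. AT1G19020 fell from 653 ± 56 to 250.0 ± 79.7 (SD, n = 3 each), a 2.7-fold difference, while the vector line at 4 h gave 903 ± 99.3 (SD, n = 2), above both. Its call was lost without any 2 h replicate or without 4 h replicate 1, with adjusted p up to 0.0642 in those limma fits. The other 3 of the 12 were dim: AT5G38040, at least 5.57-fold lower and at the floor on all 4 h arrays, AT5G04310 at -2.10 ± 0.43 and AT1G71000 at -1.69 ± 0.32. Leaving out any 1 of the 6 arrays removed the calls of AT5G38040 and AT1G71000, with adjusted p up to 0.0962 and 0.126, and leaving out any but 4 h replicate 3 removed that of AT5G04310, with adjusted p up to 0.154 (limma fits). AT1G71000 also failed in 8 of 10 other settings and AT5G04310 in 7 of 11.

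The brightest falls were smaller and measured more closely. AT1G29670 read 7147, 8203 and 6837 at 2 h and 4141, 4348 and 3884 at 4 h, a change of -0.84 ± 0.08 (limma adjusted p = 0.00115). AT1G52200 read 5313, 5173 and 5362 at 2 h and 2206, 2960 and 3047 at 4 h, a change of -0.96 ± 0.13 (limma adjusted p = 0.00768). The 2 h arrays of AT1G52200 were nearly level, and replicate 1 was the lowest at 4 h. The vector line at 4 h read 5444 ± 154 for AT1G29670, between the times, and 7148 ± 378 for AT1G52200, above both (SD, n = 2). Both calls were kept whichever array was left out. The other 4 of the 6 brightest, AT4G18030, AT5G18310, AT5G35735 and AT4G20830, fell by 0.45 to 0.86 on the log2 scale. Their calls were less secure. AT4G18030 and AT5G35735 each lost the call without any of 3 of the 6 arrays, and AT5G18310 and AT4G20830 without any of 5. AT5G18310 also failed in 5 of 12 other settings and AT4G20830 in 7 of 12.

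Among the rises the largest was that of BHLH101, a transcription factor gene of the iron-deficiency response. It read 8.1, 5.2 and 7.1 at 2 h, at or next to the floor, and 53.3, 73.8 and 36.2 at 4 h. All 4 h arrays lay far above all 2 h arrays, though lack of overlap was required for naming it. The rise was 2.70 ± 0.28 (limma adjusted p = 0.00132) and was kept whichever array was left out, and the vector line at 4 h read 48.5 and 89.4, like the 4 h arrays. With only the 6 arrays in the fit it was no longer called (adjusted p = 0.0954, limma), nor with a floor of 32, where the change was 0.71 (adjusted p = 0.3).

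GT72B1, a glucosyltransferase gene of the UGT72 family whose enzyme adds glucose to phenolic compounds and to some foreign chemicals, read 606, 448 and 562.5 at 2 h. At 4 h it read 819, 930 and 934, all above the 2 h arrays. The rise was 0.74 ± 0.12 (limma adjusted p = 0.0153), with 900.1 ± 109 (SD, n = 2) in the vector line at 4 h. Its call was lost without 4 h replicate 2 (adjusted p = 0.0533 in that limma fit).

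MTP11, which encodes a manganese transporter of internal membranes, read 999.9, 1089 and 1188 at 2 h and 1915, 1616 and 1917 at 4 h. The groups were separated by more than the range of either. The rise was 0.73 ± 0.12 (limma adjusted p = 0.0174), but the call was lost without 2 h replicate 1 or 2 or 4 h replicate 1 or 3, with adjusted p up to 0.0729. ARD4, an acireductone dioxygenase gene of the methionine salvage cycle, read 1077, 1138 and 1094 at 2 h and 1659, 1558 and 1543 at 4 h. Its arrays were the most level of the rises named, and the change of 0.52 ± 0.07 (limma adjusted p = 0.00554) was kept whichever array was left out.

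The other rises named by size have only a locus here. AT4G39675 rose by 2.12 ± 0.42, AT1G61590 by 2.04 ± 0.33, AT5G63070 by 1.90 ± 0.36 and AT3G57760 by 1.83 ± 0.34, all from 2 h means below 19. The first of these lost its call without any 1 of the 6 arrays, and the others without 4 or 5 of them. AT4G39675 also failed in 8 of 10 other settings, AT3G57760 in 8 of 11, and AT1G61590 and AT5G63070 in 5 of 10 each. AT1G19960 read 151, 87.5 and 115 at 2 h and 214, 469 and 491 at 4 h, where replicate 1 was far below replicates 2 and 3 (1.68 ± 0.34, limma adjusted p = 0.0461). The brighter AT5G65660 rose from 1024 ± 181 to 1713 ± 105, AT3G19000 from 663 ± 60.6 to 1093 ± 130 and AT1G05170 from 169 ± 22.9 to 303.5 ± 58.5 (SD, n = 3 each). AT2G23400, at the floor on all 2 h arrays, was at least 1.59-fold higher. Of the other bright rises, AT3G21690, AT3G56370, AT1G02816 and AT1G61100 went up by 0.43 to 0.63. AT1G19960, AT1G05170 and AT3G21690 lost the call without any of 5 of the 6 arrays, and AT2G23400 and AT1G02816 without any of 4. For AT5G65660 the number was 3 and for AT1G61100 it was 2. AT3G19000 and AT3G56370 kept the call whichever array was left out. AT2G23400 also failed in 8 of 10 other settings, AT1G19960 in 6 of 11, and AT1G05170 and AT1G02816 in 7 of 12.

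**Figure D2:**
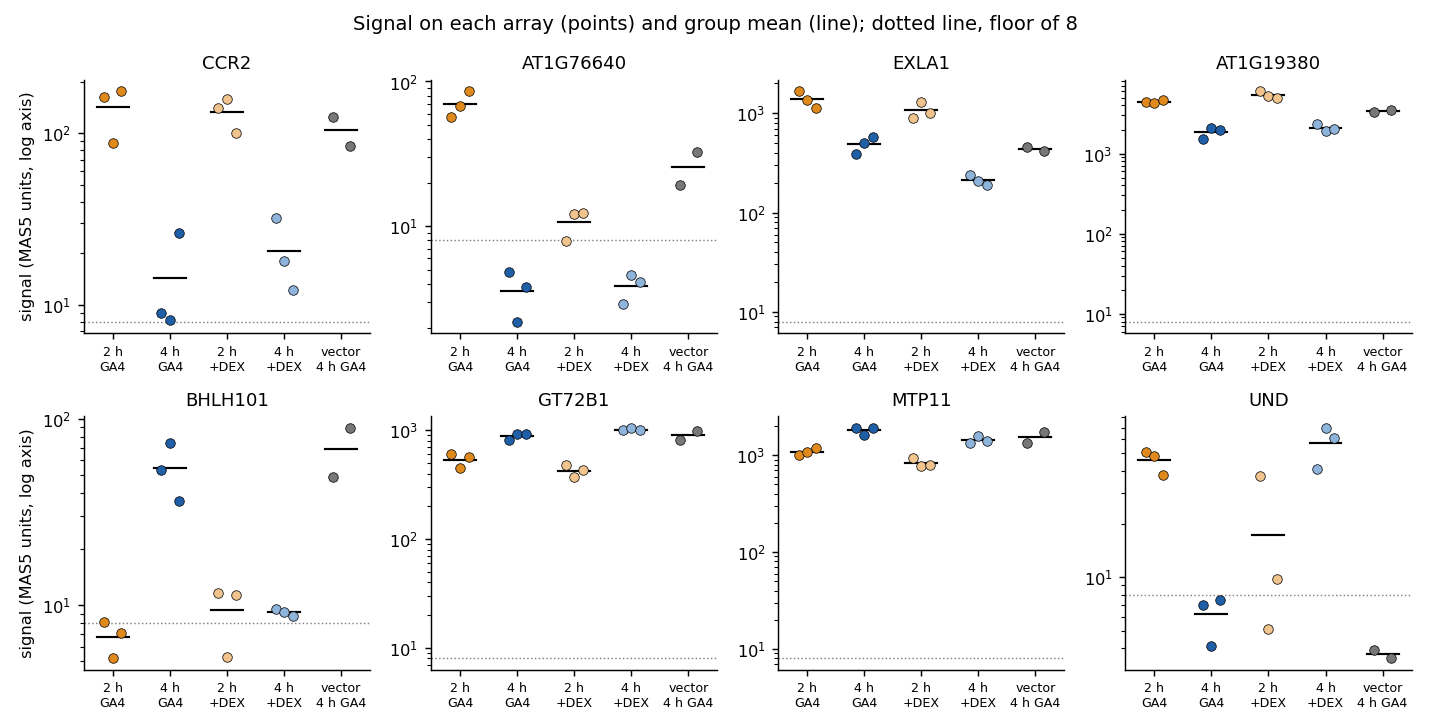
Signal of 8 genes on each array (points, log axis) with the group mean (line), for the DEX-inducible rga-delta17 line at 2 h and 4 h under GA4 alone and under GA4 plus DEX (3 arrays each) and the vector line at 4 h under GA4 alone (2 arrays); the dotted line is the floor of 8. Under GA4 alone CCR2, AT1G76640, EXLA1, AT1G19380 and UND are lower at 4 h and BHLH101, GT72B1 and MTP11 higher. The lack of overlap there was required for choosing these genes. Under GA4 plus DEX, BHLH101 stays low and UND is higher at 4 h.

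The gene lists below were matched by locus, and a gene counts as measured only where a probe set is paired with it alone. Many listed genes had no such probe set. Over all probe sets 0.765% were called, so a list this small without a call does not show that its genes were unchanged. For the gibberellin path itself, 8 of 13 genes of perception and signalling were measured and none was called, with a median change of -0.05 against 0.004 over all probe sets. The receptor gene GID1B read 346, 262.3 and 376 at 2 h and 176, 259.9 and 216 at 4 h. Its arrays did not overlap, as in 6.09% of all probe sets in that direction. The 2 h and 4 h arrays of replicate 2 almost met, and the difference of -0.60 ± 0.18 did not pass (limma adjusted p = 0.204). The other receptors differed by 0.12 ± 0.11 (GID1A) and 0.12 ± 0.15 (GID1C). SLY1, the F-box gene, read 543, 428 and 491 at 2 h and 635, 662.5 and 507 at 4 h, with overlap (0.30 ± 0.12, limma adjusted p = 0.382). SPY and SEC, which encode enzymes that attach sugars to proteins including DELLAs, differed by -0.03 ± 0.08 and -0.08 ± 0.11, and XERICO, a RING-finger gene that DELLAs regulate, by -0.18 ± 0.14. None of the 16 genes of gibberellin metabolism was measured.

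The GASA family encodes small cysteine-rich proteins, several of them regulated by gibberellin. Of 12 listed, 5 were measured and none was called (median 0.08). The brightest, AT1G22690, read 1984, 2257 and 1640 at 2 h and 2239, 2154 and 1813 at 4 h, a difference of 0.08 ± 0.13.

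Of 22 expansin and expansin-like genes 12 were measured, and EXLA1 was the 1 call (median of the 12, -0.07). EXPA8 had 127, 117 and 146 at 2 h and 213, 201 and 343.5 at 4 h. EXPB1 had 37.8, 18.4 and 43.0 at 2 h and 78.3, 90.6 and 60.0 at 4 h. In both genes all 4 h arrays lay above all 2 h arrays, as in 6.52% of all probe sets. Neither difference passed, at 0.92 ± 0.28 and 1.28 ± 0.47 (limma adjusted p of 0.232 and 0.345). EXPA9 was likewise higher without overlap (0.46 ± 0.17) and EXPA4 lower without overlap (-0.26 ± 0.11), and neither passed. Over all probe sets 6.09% were lower without overlap. The other 2 genes of the EXLA group differed by -0.27 ± 0.39 (EXLA2) and 0.65 ± 0.69 (EXLA3).

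Of 24 XTH genes 8 were measured. EXGT-A3, listed as XTH27, was the 1 call: it read 1794, 1531 and 1422 at 2 h and 2220, 2521 and 2180 at 4 h, a rise of 0.55 ± 0.10 (limma adjusted p = 0.0381). That call was kept only without 2 h replicate 1, and without any other 1 of the 6 arrays the adjusted p reached up to 0.128. XTH18 read 3191, 3464 and 3519 at 2 h and 916, 1772 and 1889 at 4 h; the difference of -1.22 ± 0.34 did not pass in the limma fit (adjusted p = 0.166), with 4 h replicate 1 far below the other two. XTH32 read 905, 973 and 1017 at 2 h and 756.5, 732 and 799 at 4 h, -0.34 ± 0.08 (limma adjusted p = 0.0765). The list's median was -0.14.

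Of 23 auxin response genes 8 were measured and none was called (median -0.07). GH3.3, which encodes an enzyme that conjugates auxin to amino acids, read 1553, 1333 and 1896 at 2 h and 764, 872 and 1083 at 4 h. HAT2, an auxin-induced homeobox gene, read 441, 514 and 532 at 2 h and 258, 206 and 279 at 4 h. Neither gene's arrays overlapped between the times, as in 6.09% of all probe sets in that direction. Both genes were named for having the smallest p of the list, which favours such separation. The differences of -0.81 ± 0.17 and -1.01 ± 0.25 did not pass (limma adjusted p of 0.0608 and 0.114). GH3.3 passed in 5 of 12 other settings, XTH18 in 2 and HAT2 in 6, among them the fits without the dimmest 25% or 50% of probe sets.

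**Figure D3:**
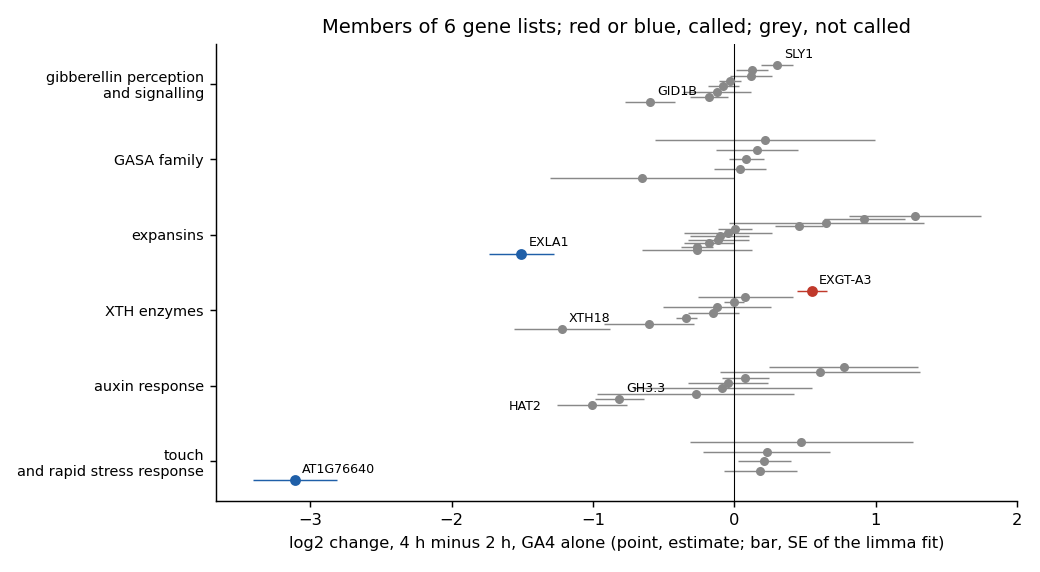
Change from 2 h to 4 h under GA4 alone (log2, x axis) of the measured members of 6 gene lists; points are estimates, bars are standard errors of the limma fit, blue marks a called fall (EXLA1, AT1G76640), red a called rise (EXGT-A3) and grey members that did not pass. Most members lie near 0, and the members of the gibberellin signalling list range from -0.60 to 0.30.

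Of 23 touch and rapid stress genes 5 were measured, with AT1G76640 (CML39) the 1 call and the other 4 between 0.18 and 0.47 (list median 0.21). STZ, a zinc-finger repressor gene of stress responses, read 948, 794 and 1455 at 2 h and 1073, 1403 and 1128 at 4 h, and WRKY53 differed by 0.18 ± 0.26. Of 17 phenylpropanoid and lignin genes, CCR2 and HCT were measured; HCT, which encodes a transferase earlier in that path, differed by -0.27 ± 0.11 (limma adjusted p = 0.447). Among 26 clock genes GI alone was measured: 530, 566 and 511 at 2 h and 541, 623 and 633 at 4 h, a difference of 0.16 ± 0.09 (limma adjusted p = 0.676). With 1 clock gene measured, the list cannot describe the rhythm of these seedlings.

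The remaining lists had 3 measured members or fewer and no call. The 3 measured of 17 photosynthesis genes, LHCB4.1, RCA and PORB, differed by -0.08 to -0.06. COR15B, a cold and dehydration gene, averaged 99.6 ± 43.6 at 2 h and 183 ± 33.7 at 4 h (SD, n = 3 each) without passing (0.98 ± 0.36, limma adjusted p = 0.352). COR47 and COR15A (abscisic acid and dehydration), ARR15 and RR16 (cytokinin), EIN3 (ethylene), DFR (anthocyanin), HYH (light), SIM (cell cycle) and PDF1.2 (defence) did not pass either. No gene of the jasmonate, brassinosteroid, sugar starvation, heat shock or glucosinolate lists was measured.

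The same interval was measured in the same line under GA4 plus DEX, on 6 other arrays. Those arrays share none with the comparison above, but both use the spread estimated in 1 fit. There 530 probe sets were called (2.33%), 243 higher (1.07%) and 287 lower (1.26%). Of the 47 probe sets higher at 4 h under GA4 alone, 39 (83%) also had a change above 0 under GA4 plus DEX, and 24 (51.1%) were called higher, which is 9.88% of the rises there. Of the 127 lower, 118 (92.9%) had a change below 0 and 76 (59.8%) were called lower, 26.5% of the falls there. Over all probe sets 47.1% were above 0 and 51% below 0 under GA4 plus DEX. The median change of the 47 was 0.67 under GA4 alone and 0.47 under GA4 plus DEX, and that of the 127 was -0.68 and -0.48; the GA4-alone values chose these probe sets, so that the first of each pair is larger is not a result.

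**Figure D4:**
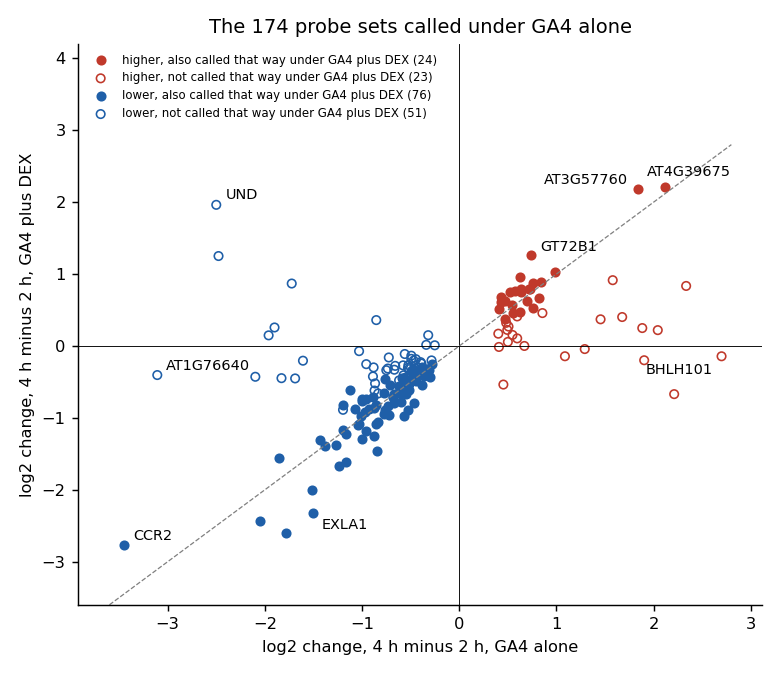
Change from 2 h to 4 h (log2) under GA4 alone (x axis) and under GA4 plus DEX (y axis) for the 174 probe sets called under GA4 alone; filled points were called in the same direction under GA4 plus DEX (24 higher, 76 lower), open points were not (23 and 51), and the dashed line marks equal change. Most points share a sign; BHLH101 and AT1G76640 lie near 0 on the y axis and UND lies on the other side of 0.

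Among the named genes CCR2 changed in both: with DEX it read 140, 158 and 100.4 at 2 h and 31.9, 18.0 and 12.2 at 4 h (-2.77 ± 0.49, limma adjusted p = 0.0127). EXLA1 with DEX read 899.9, 1301 and 1005 at 2 h and 238, 209 and 190 at 4 h (-2.32 ± 0.23, limma adjusted p = 0.000647). AT1G19380 fell by 1.38 there, and GT72B1, MTP11 and ARD4 rose by 1.26, 0.79 and 0.75. Of the dim rises, AT4G39675 went from 3.4, 4.2 and 6.9 to 47.6, 27.8 and 38.8 with DEX and AT3G57760 from 11.4, 14.5 and 15.3 to 82.2, 57.8 and 49.3, both called there (limma adjusted p of 0.0188 and 0.0068). AT1G61590, which read 6.9, 10.9 and 6.4 at 2 h and 38.3, 37.1 and 34.2 at 4 h under GA4 alone, read 10.6, 5.4 and 14.6 and then 13.0, 18.7 and 2.7 with DEX. The vector line at 4 h read 7.7 and 5.9 for AT1G61590, below the 4 h arrays under GA4 alone. EXGT-A3 did not pass with DEX, where its change was 0.15 ± 0.10, and read 2391 to 2822 at 2 h, already as high as the 4 h arrays under GA4 alone.

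The difference between the time changes was tested for every probe set, and none was called. At an unadjusted p below 0.05 there were 1373 (6.04%), and the lowest adjusted p was 0.0509 (limma). That p belonged to AT1G77770, a locus called in both comparisons and in opposite directions. Under GA4 alone it read 245, 274.5 and 283 at 2 h and 346, 369.9 and 381 at 4 h, a rise of 0.45 ± 0.08. With DEX it read 624, 624 and 642 at 2 h and 413, 416 and 477 at 4 h, a fall of -0.54 ± 0.08. The difference was -0.99 ± 0.12; the 2 treatments lay closer at 4 h than at 2 h, with the DEX arrays above those under GA4 alone at both times.

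UND was the other gene called in opposite directions: with DEX it read 37.4, 5.1 and 9.8 at 2 h and 40.9, 69.6 and 61.1 at 4 h (1.96 ± 0.45, limma adjusted p = 0.045). The 2 h DEX arrays were uneven, with replicate 1 close to the 4 h arrays, and the difference between the time changes was 4.46 ± 0.64 (limma adjusted p = 0.0713). BHLH101 with DEX read 11.6, 5.3 and 11.4 at 2 h and 9.6, 9.2 and 8.8 at 4 h, near the floor on all 6 arrays; the difference from the change under GA4 alone was -2.84 ± 0.40 (limma adjusted p = 0.0713). AT1G76640 was already low at 2 h with DEX, at 7.9, 12.1 and 12.3, and read 2.9, 4.6 and 4.1 at 4 h; the difference was 2.70 ± 0.42 (limma adjusted p = 0.0898). These 3 genes are dim, and none of the differences passed.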

How the data were processed

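Each array's file values are linear intensities, 1 for each probe set, as deposited; the authors computed them by MAS5 according to the submitters' processing notes. The sources used here give neither its version nor its settings. The mean after trimming 2% at each end was 500.05 on every array, so arrays had been scaled to 1 target, and this was kept. Of 22810 probe sets 64 controls were left out; signals below 8 were raised to 8 and log2 was taken. No filter on dim probe sets was applied. A fold against a group with all arrays at the floor is given as "at least". A single model of 6 group means was fitted to all 16 arrays with limma 3.58.1 in R 4.3.3, with 10 residual degrees of freedom and a mean-variance trend; errors of log2 changes are its SEs, and calls needed a Benjamini-Hochberg adjusted p below 0.05 over 22746 probe sets. The script was tested on simulated data. The number of arrays limits the precision.

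A probe table named 1 gene for 13513 probe sets, several for 503 and did not list 8730; symbols were updated through the RefSeq gene table (assembly TAIR10.1), which gave a locus to 13436. Roles are given as background and only for genes with a symbol there, for AT1G76640 by its synonym CML39, and for the listed GASA genes. The genes named were the 12 largest rises and falls among called probe sets with 1 named gene and no overlap between times, the 6 brightest others each way, up to 4 members of smallest p of each gene list, by the brightest probe set, and AT1G77770 and further list members, added after their values were seen. The comparison and the gene lists were chosen with earlier results of these data known. The replicate numbers were not treated as pairs in the main fit. Same-numbered arrays of the 2 times deviated from their group means with correlations of -0.0477, -0.0008 and -0.0172. Taken over all probe sets, dim ones included, these values cannot show whether such arrays were handled together. No 2 arrays held the same values. Alternatives were another normalization, floor, filter, variance model or set of arrays, a replicate block, an added 1.5-fold minimum and each replicate left out.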

Additional observations from a re-analysis of the deposited data

How the results depend on the processing

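The count under GA4 alone was 174. It became 263 without the dimmest 25% of probe sets, 284 without the dimmest 50%, 84 without the variance trend, 6 with only the arrays compared, 98 with the 12 arrays of the transgenic line, 105 with the added 1.5-fold minimum, and 75 to 155 with 1 of its replicates left out. A replicate block gave 99 calls under GA4 alone, 89 of them among the 174. Whether same-numbered arrays were handled together is not known here. Centring on array medians gave 190 calls, of which 17.9% were higher against 27% in the main analysis. The count under GA4 plus DEX was 530, and became 101 with only the arrays compared, 327 with the 1.5-fold minimum and 271 to 459 with a replicate left out. For the difference of the time changes, 0 in the main analysis, quantile normalization gave 2 calls, centring 3, no floor 6, a floor of 32 gave 14, an offset of 16 gave 9, leaving out the dimmest 25% or 50% gave 8 each, the replicate block gave 1, and leaving out a replicate 0 to 8; the cause was not tested. Leaving out the vector line's DEX arrays, which correlated less with the rest, is a choice made after seeing the data; it gave 144 calls under GA4 alone.

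Of the 36 called genes named, 33 lost the call with only the arrays compared, 11 lost it with no omitted array, and 0 of the 36 turned sign in the settings run; of the 41 named genes not called, 14 turned sign in at least 1 setting. At a floor of 32, AT1G71000 and AT2G23400 had no difference left. Dim genes limit what can be seen: a fold against a group with all arrays at the floor is a bound, and other changes near it move with the setting, as BHLH101 did between 0.71 and 2.97 and CCR2 between -3.98 and -2.09. BHLH101 lost its call at a floor of 32.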

Other observations

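Genes of wall and membrane proteins outside the naming rule, picked here after their values were seen, were among the other called falls. FER, the receptor kinase FERONIA that senses the cell wall, read 2346, 2270 and 2414 at 2 h and 1591, 1667 and 1648 at 4 h (-0.52 ± 0.06, limma adjusted p = 0.00185). VPS2.1, a subunit of the ESCRT machinery that sorts membrane proteins for breakdown, read 1195, 1314 and 1334 at 2 h and 829, 903 and 807 at 4 h (-0.60 ± 0.07, limma adjusted p = 0.00326). Genes of traffic between endoplasmic reticulum and Golgi fell less, ATRER1A by 0.34 and the SNARE gene SEC22 by 0.29 on the log2 scale. TBL18, of a family of wall polysaccharide acetyltransferases, fell by 0.52, the glucosinolate transporter gene GTR1 by 0.51 and the glucosyltransferase gene UGT73B5 by 0.85. As they were picked for having fallen, they say nothing of how such genes moved as a group.

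Probe sets with 1 named gene held 21 of the 47 called rises and 55 of the 127 called falls. Over all 22746 probe sets the shares called were 0.207% higher and 0.558% lower. Of the 8730 probe sets with no gene in the probe table, 24 were called higher and 71 lower. The one with the largest fall read 1261, 978 and 1602 at 2 h and 329, 292 and 292 at 4 h, a fall of -2.05 ± 0.21 (limma adjusted p = 0.0013), while the vector line at 4 h read 922.5 and 1013. The one with the largest rise read 9.3, 10.3 and 5.4 at 2 h and 44.3, 56.7 and 38.9 at 4 h. None of the 69 plastid probe sets was called, with a median change of 0.02. Over all probe sets 0.765% were called, so the lack of a call among 69 is no result about plastid genes.

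The array's own control probe sets were left out of the tests. The ubiquitin control for the 5' end read 11359, 9614 and 10406 at 2 h and 8134, 8427 and 7833 at 4 h, with no overlap, and the middle and 3' controls of that set were also lower at 4 h on all arrays. No rule set beforehand chose these controls, and 6.09% of all probe sets had no overlap in that direction. In a second ubiquitin set the 3' control overlapped (lowest at 2 h 16417, highest at 4 h 16955). The 5' control of that second set did not (16988 and 15935). The actin control for the 3' end averaged 8642 ± 649 and 9341 ± 201 (SD, n = 3 each).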
